A study of Mus musculus with 4 samples.

Results

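Basal keratinocytes of the mouse digit with few transcripts of the division genes Mki67 and Top2a numbered 8285 of the 93602 cells kept from 4 single-cell libraries. A cell was a member if Krt5 plus Krt14, the keratin pair of the basal layer, made at least 1% of its unique transcript counts (UMIs) and over 4 times Krt1 plus Krt10, the pair of the layer above. Members also had under 0.1% of UMIs from Krt17, Krt6a and Krt79 together, at most 1 UMI of Mki67 plus Top2a, and fewer than 4 of the 6 hair follicle genes Sostdc1, Ptprz1, Lmo1, Vsnl1, Lrig1 and Ntrk2. These measured values chose the cells, so the levels of these genes describe the choice. The set was labelled quiescent, a word that the data bear out in part only, because some members carried S phase transcripts. It is therefore called by its rule here, as Mki67/Top2a-low basal keratinocytes.

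The libraries came from female C57BL/6 mice aged 6 to 8 weeks that had lost the tip of the terminal phalanx (P3) on hindlimb digits 2 and 4. Digits 2 to 4 were collected, and those of 10 mice were pooled in each library. In the diet experiment, mice ate chow with SAR131675, an inhibitor of the lymphatic growth factor receptor VEGFR3, at 30 mg/kg for 8 days, or a matched control diet. In the surgical experiment, the digits came from a limb after lymph node removal (LNR) or from the control, called sham in the study's text, which describes it as the opposite limb. The labels of both control groups give no treatment, and the chow began 5 days before amputation. The study's text gives 8 days after amputation for the tissue, whereas a legend gives 5 days for the diet pair. Every library was listed as a batch of its own and was the only one of its condition, so the effect of a treatment cannot be told apart from that of its batch, and a test across samples was not possible.

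The basal layer is the lowest layer of the epidermis. Its cells hold on to the basement membrane through hemidesmosomes, which join keratin filaments to laminin outside the cell through the integrin of Itga6 and Itgb4 and through collagen XVII. Basal cells divide, and daughters that leave the membrane switch from Krt5 and Krt14 to Krt1 and Krt10 as they enter the spinous layer. The layer is also known as a source of Wnt proteins and of growth factors that act on the dermis, its vessels and its resident immune cells.

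Values are given below in the order SAR131675, control diet, LNR and sham. The libraries held 168507188 to 585284877 UMIs, and 19827 to 29076 cells were kept in each, with a median of 5725 to 11316 UMIs. Members numbered 2465, 2194, 1674 and 1952, with a median of 11778, 11266.5, 7032.5 and 6516.5 UMIs per cell. The diet libraries were deeper than the surgical ones and were counted with another version of the software, and a gene such as Sox6, a transcription factor, lay at 798 and 758 against 41.1 and 41.6 CPM, which is the gene's UMIs scaled to a common total. Levels were therefore compared only within an experiment. Of kept barcodes, 210 were shared by the diet libraries and 101 by the surgical ones, and no other pair of libraries shared more than 2. Scrublet, a doublet caller, marked 2.88%, 0.638%, 5.38% and 6.30% of members, and these were left in. It marked 1.01% to 8.12% of kept cells, against 15.9% to 23.3% expected from the number of cells, so most doublets expected at that rate were not called. All intervals below are 95% intervals that cover counting error only.

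Near the limits of the rule, 202, 168, 208 and 182 cells met every other condition but had 0.9 to 1% of UMIs from Krt5 plus Krt14, and 190, 153, 169 and 198 members had 1 to 1.1%. Itga6 lay at 819, 836, 307 and 322 CPM just outside the limit and at 893, 969, 322 and 354 CPM just inside it. Cells on either side of the limit thus had similar levels of a basal gene that the rule did not use. Of the cells that met the keratin limits, 1304 in the SAR131675 library and 1058 in the control library were set aside for Mki67 plus Top2a, and 695 and 585 for their follicle genes.

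The attachment genes set the members apart from spinous cells. For this description, a spinous set of 12551 cells was chosen by the mirror of the rule. Its cells had Krt1 plus Krt10 at least 1% of UMIs and over 4 times Krt5 plus Krt14. The other limits of the rule, such as at most 1 UMI of Mki67 plus Top2a, were the same. Of 26 genes of hemidesmosomes and basement membrane, 21 were at least 2-fold higher in members than in spinous cells in all 4 libraries and none was lower. Over all 14753 genes tested, 12.9% were higher by this measure and 6.88% lower, and both sets were gated on keratins, so nothing is read from the difference between the shares. With scaling by the median ratio of all genes, which moved the median by 0.32 on the log2 scale, the 1910 higher and 1015 lower genes became 1218 and 1335.

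Col17a1, which encodes collagen XVII, lay at 1619, 1763, 1173 and 1102 CPM in members and at 252, 251, 160 and 151 CPM in spinous cells. In each library the member level was the higher one. Itgb4, the integrin subunit of hemidesmosomes, lay at 293, 391, 211 and 205 CPM in members and was 4.07 to 4.27 higher on the log2 scale than in spinous cells. The largest differences in this list were in the laminin 332 chain Lamb3, at 95.3, 106, 91.4 and 92.98 CPM against 1.97 to 2.44 CPM, and in Itga3, a laminin-binding integrin subunit. Itga3 lay at 82.4, 113, 47.4 and 47.8 CPM in members and at 1.30 to 2.21 CPM in spinous cells. Plec, which encodes the linker protein plectin, differed least among the 4 most abundant genes of the list, by at most 1.14 on the log2 scale.

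Differentiation genes showed the opposite pattern. None of 26 spinous and granular genes was at least 2-fold higher in members, and 23 were lower in all 4 libraries. Krtdap, a secreted keratinocyte protein, lay at 1677, 1622, 2501 and 2484 CPM in members and at 11116 to 18137 CPM in spinous cells. Hrnr, a cornified layer gene, ranked lowest against spinous cells, at 12.4, 11.3, 3.36 and 6.41 CPM against 864 to 1973 CPM. Serpinb12, which encodes a protease inhibitor, lay at 1.30 to 4.71 CPM against 331 to 447 CPM. Of 21 desmosome and adherens junction genes, 10 were lower in members and 4 higher. For both lists, the shares over all genes were 12.9% higher and 6.88% lower. Perp, a desmosome gene that p63 activates, lay at 1552, 1535, 1050 and 1038 CPM and was 1.60 to 1.74 lower in members on the log2 scale, whereas Dsp, which encodes desmoplakin, was 0.80 to 1.03 lower.

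Of 31 epidermal transcription factors, 5 were at least 2-fold higher in members in all libraries and 8 were lower, with a median log2 ratio of 0.14, against 12.9%, 6.88% and 0.32 over all genes. Trp63, which encodes the basal regulator p63, lay at 704, 774, 300 and 300 CPM and was 1.13 to 1.22 higher in members than in spinous cells on the log2 scale. Its relative Trp73 lay at 28.9, 30.1, 14.9 and 15.3 CPM against 0.209 to 0.785 CPM. Among the lower ones were Grhl3 and Zfp750, which act in barrier formation. Klf4, a differentiation factor, lay at 432, 510, 579 and 534 CPM in members and was 0.68 to 1.26 lower than in spinous cells. Among 27 limb and position genes, Hoxa9 was at 158, 168, 70.5 and 70.0 CPM and En1, a ventral limb gene, at 52.0, 44.1, 35.6 and 34.3 CPM.

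Among keratins outside the rule, Krt15, a basal keratin often used to mark slow-cycling epidermal cells, lay at 2430, 2526, 2445 and 2628 CPM. The spinous levels were 63.6, 41.5, 101 and 74.9 CPM. In each library the member level was the higher one by far. Against cycling basal and outer follicle cells, described below, Krt15 was only 0.34 to 0.47 and 0.24 to 0.32 higher on the log2 scale.

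**Figure D1:**
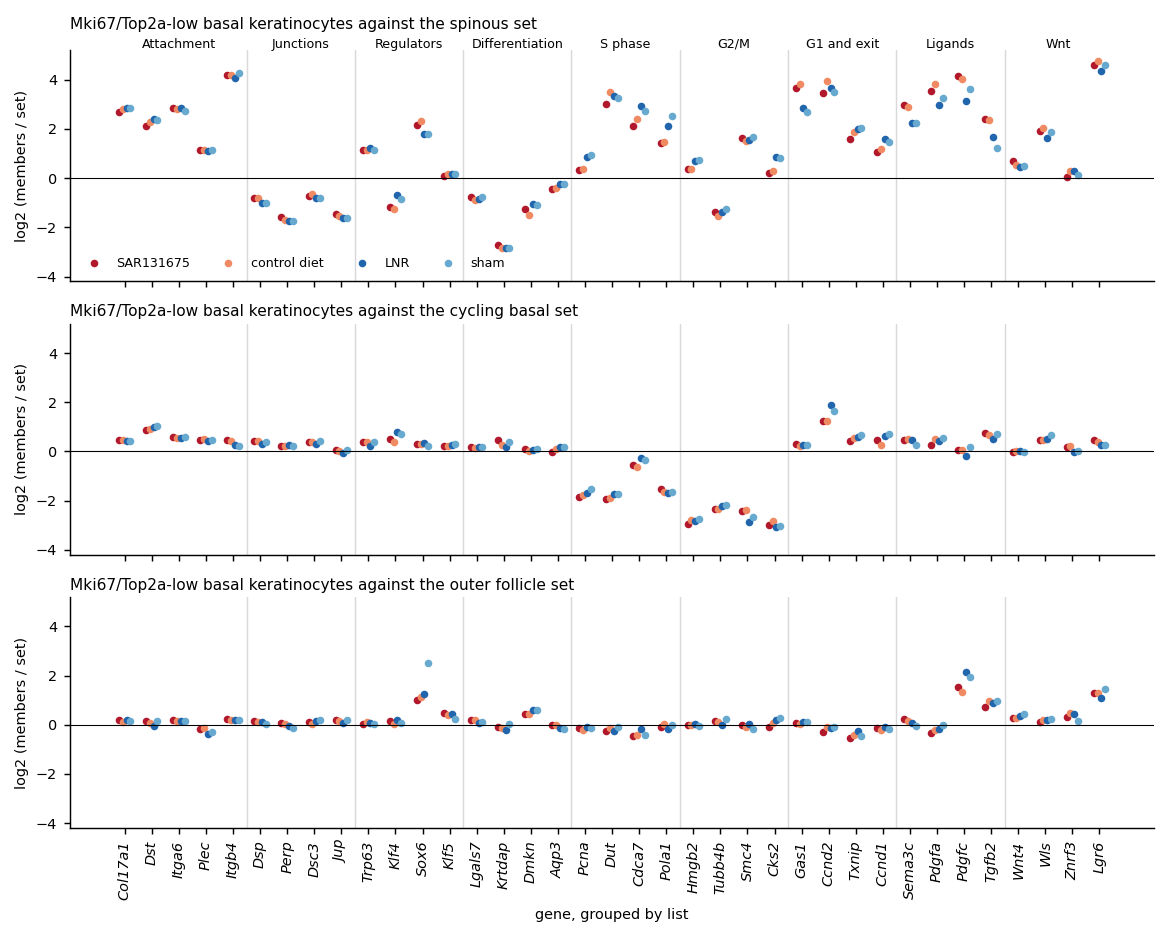
Each point is 1 library, and the vertical axes give the log2 ratio of CPM in Mki67/Top2a-low basal keratinocytes to CPM in the spinous set (top), the cycling basal set (middle) and the outer follicle set (bottom). Of the attachment genes, Itgb4 lies 4.07 to 4.27 above 0 against spinous cells, Plec at most 1.14 above 0, and both lie near 0 against follicle cells, and the G2/M genes lie below 0 against cycling cells in every library.

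The cell cycle genes that the rule did not use separated the members from cycling basal cells, which passed every other limit but had 2 or more UMIs of Mki67 plus Top2a (3542 cells). All 32 G2/M genes and 26 of 30 G1/S and S phase genes were at least 2-fold lower in members in all 4 libraries. Over 13270 genes tested, 4.1% were lower by this measure and 0.505% higher. This contrast was the one that the rule used, and the counts describe it. Aspm, a spindle gene, lay at 1.05, 0.507, 0.819 and 0.763 CPM in members and at 172, 156, 112 and 109 CPM in cycling cells. Nusap1, another spindle gene, lay at 1.15 to 2.71 CPM in members and at 331 to 430 CPM in cycling cells.

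Members nevertheless held more S phase transcripts than spinous cells. Of 30 G1/S and S phase genes, 22 were at least 2-fold higher in members than in spinous cells in all 4 libraries and none was lower. Mcm5, a subunit of the replicative helicase, lay at 8.05, 9.30, 15.9 and 22.1 CPM in members, at 0.966 to 1.38 CPM in spinous cells and at 47.1 to 64.7 CPM in cycling cells. Dut, which keeps uracil out of DNA, lay at 64.3, 55.9, 74.1 and 78.8 CPM in members, at 4.92 to 8.21 CPM in spinous cells and at 209 to 258 CPM in cycling cells. For both genes the member level lay between those of the other sets in each library. Of the 32 G2/M genes, 4 were higher in members than in spinous cells and 2 lower, close to the 12.9% and 6.88% of all genes.

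The same order appeared cell by cell once each cell was thinned to 3000 UMIs, which left out 80, 133, 96 and 153 shallower members. At least 5 of the 30 S phase genes were found in 6.46% (5.50 to 7.52), 5.00% (4.10 to 6.03), 9.51% (8.10 to 11.1) and 10.4% (9.02 to 11.9) of members. The shares were 49.0% to 60.4% in cycling cells and 0.235% to 0.265% in spinous cells. The spinous set was itself limited to at most 1 UMI of Mki67 plus Top2a, so its share is no independent baseline. At least 5 of the 32 G2/M genes were found in 1.09%, 1.16%, 2.22% and 2.72% of members, in 64.4% to 83.3% of cycling cells and in 0.235% to 0.468% of spinous cells. Without thinning, the S phase shares of members were 41.1%, 38.1%, 26.0% and 26.7%, and those of spinous cells 17.8%, 13.7%, 4.37% and 4.07%. The unthinned G2/M shares were 29.7%, 28.2%, 11.9% and 12.6% in members and 30.7%, 26.5%, 8.40% and 9.68% in spinous cells, so the order of the sets in the SAR131675 library depended on the thinning.

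**Figure D2:**
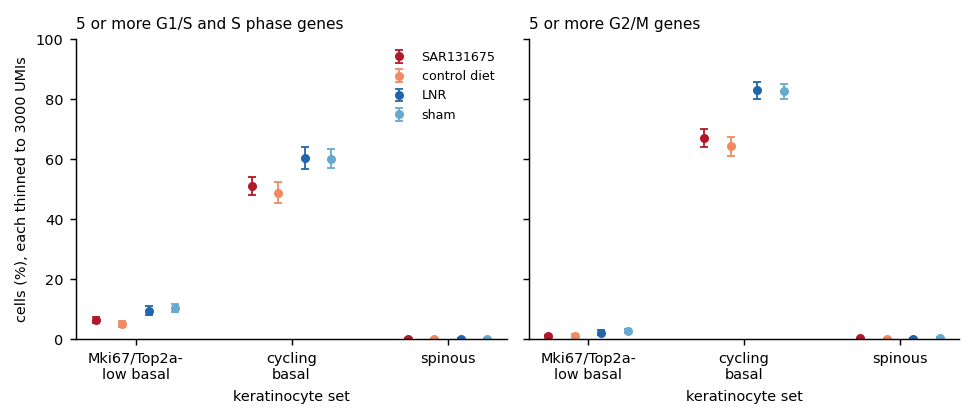
The vertical axes give the percentage of cells, thinned to 3000 UMIs each, in which 5 or more genes of the list were found, with exact binomial 95% intervals, for 3 keratinocyte sets and 4 libraries. Members lie at 5.00% to 10.4% for S phase genes, above the spinous cells and well under the cycling cells.

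Of 21 regulators of cell cycle entry and exit, 7 were at least 2-fold higher than in spinous cells in all 4 libraries and 3 lower. Over all genes these shares were 12.9% and 6.88%. Ccnd2, which encodes the G1 cyclin D2, lay at 530, 625, 364 and 350 CPM in members, at 226, 267, 97.6 and 112 CPM in cycling cells and at 28.7 to 48.6 CPM in spinous cells. It was the only one of the 21 that was at least 2-fold higher than in cycling cells in all 4 libraries. Cdkn2c and Rbl1, which restrain S phase entry, were at least 2-fold lower. Over all genes the shares against cycling cells were 0.505% higher and 4.1% lower. Gas1, a gene of growth arrest, lay at 568, 574, 382 and 380 CPM, which was 2.71 to 3.85 above spinous cells but only 0.24 to 0.29 above cycling cells on the log2 scale. Lgr5, a receptor for R-spondins, lay at 19.9, 16.0, 9.58 and 10.8 CPM in members and at 2.29 to 4.59 CPM in cycling cells. Kdm7a, which encodes a histone demethylase, lay at 48.7, 57.4, 21.5 and 23.1 CPM against 6.95 to 20.8 CPM. Ccn2, a target of mechanical signals, lay at 12.7, 20.6, 58.5 and 49.5 CPM in members and at 1.12 to 19.0 CPM in cycling cells. Every member level was above that of cycling cells of its own library. With Krt5 plus Krt14 at 2% of UMIs or more, 397, 502, 293 and 371 members were left. Lgr5 gave 17, 5, 1 and 6 UMIs in them, against 502, 346, 114 and 133 in all members without Scrublet calls. Ccn2 gave 19, 10, 4 and 12 UMIs, against 318, 450, 599 and 526. Their UMIs thus lay mostly in members under that limit.

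Of 35 Wnt pathway genes tested, 15 were at least 2-fold higher in members than in spinous cells in all 4 libraries and 1 was lower. For this and the Notch and ligand lists, the shares over all genes were 12.9% higher and 6.88% lower. Wnt3a, a ligand of the canonical pathway, ranked first of all genes against spinous cells by the smallest of its 4 ratios, at 18.6, 21.4, 3.77 and 5.57 CPM against 0.114, 0.0874, 0 and 0.0419 CPM. Wnt4 was more even, at 342, 363, 265 and 289 CPM, and lay 0.44 to 0.71 above spinous cells on the log2 scale. Lgr6, an R-spondin receptor of epidermal progenitors, lay at 171, 141, 46.0 and 45.7 CPM and was 4.34 to 4.77 higher than in spinous cells. Of 15 Notch pathway genes tested, 4 (Jag2, Dll1, Lfng and Maml2) were higher than in spinous cells and 3 (Notch2, Notch3 and Nrarp) lower, with a median log2 ratio of 0.41. Jag2, a Notch ligand, lay at 186, 211, 118 and 106 CPM against 2.89 to 4.88 CPM. Dlk2, which encodes a relative of the Notch ligands, lay at 81.5, 76.5, 39.1 and 37.7 CPM against 0.335 to 0.920 CPM.

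Of 24 vascular, bone and myeloid ligands tested, 9 were at least 2-fold higher in members than in spinous cells. Sema3c, a guidance cue for vessels and axons, lay at 177, 161, 72.3 and 71.3 CPM, and Pdgfa, a growth factor for dermal fibroblasts, lay at 79.7, 80.9, 57.1 and 61.6 CPM. Of the VEGFR3 ligands, Vegfd lay at 28.7, 27.7, 13.2 and 14.3 CPM and was 1.39 to 1.60 higher than in spinous cells on the log2 scale. Vegfc was near its detection limit, with 19, 6, 7 and 8 UMIs over all members. Vegfa lay at 8.23, 7.36, 11.2 and 9.54 CPM. Of the CSF1 receptor ligands, Il34, which maintains Langerhans cells, lay at 39.4, 54.1, 18.4 and 17.8 CPM and was 1.69 to 2.22 lower than in spinous cells. Csf1 lay at 6.75, 4.61, 9.34 and 7.48 CPM. Tnfsf11, which encodes RANKL, gave 7, 1, 3 and 0 UMIs, where a count of 0 allows up to 3. Flt4, which encodes VEGFR3 itself, gave 4, 15, 0 and 18 UMIs over all members.

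Few genes separated members from outer follicle cells. That set passed the same limits but had 4 or more of the 6 follicle genes (1577 cells, of which 135 and 162 in the LNR and sham libraries). Of 12817 genes tested, 0.531% were at least 2-fold higher in members in all 4 libraries and 0.944% lower. Fras1, a basement membrane gene, lay at 186, 157, 15.2 and 15.6 CPM in members and at 35.9, 24.4, 0.845 and 3.84 CPM in follicle cells. Ndufa4l2, a hypoxia-responsive mitochondrial gene, lay at 214, 188, 177 and 204 CPM against 23.7 to 47.7 CPM. On the other side were Pthlh, a secreted relative of parathyroid hormone, at 0.984, 1.14, 5.49 and 5.57 CPM against 18.7 to 36.9 CPM, and Stra6, a retinol transporter, at 1.86, 2.03, 5.16 and 4.66 CPM against 15.5 to 34.6 CPM. These genes were ranked by their difference, which is a description.

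Members also varied among themselves. After thinning to 3000 UMIs, 74 of the 3114 genes detected well enough had a variance over 2 times their mean, with a median ratio of 1.05 over all 3114. The highest ratios belonged to hemoglobin genes, with a geometric mean over libraries of 179 for Hbb-bs, 78.2 for Hba-a1 and 64.9 for Hba-a2. Their UMIs sat in few cells, and 1% of members held 87.6% to 93.4% of Hbb-bs UMIs. Dcn, a fibroblast gene, came next at 15.8. Hemoglobin genes are known from red blood cells and Dcn from fibroblasts. The summed level of 4 erythroid markers was 879, 881, 440 and 445 CPM in members and 1406, 1552, 777 and 368 CPM in the other kept cells, and so was the higher in members in the sham library.

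Malat1, a nuclear RNA found in nearly all members, followed at 13.8. Krt15 was next and the highest among keratins, with variance over mean of 9.94, 10.5, 8.59 and 8.52 and a geometric mean of 9.36. It was spread over many cells, since 85.8% to 88.8% of thinned members had a UMI and 1% of members held 5.36% to 5.93% of its UMIs. The median member carried 18, 17, 13 and 13 Krt15 UMIs, with a range from 0 to 212, 179, 139 and 167. Other variable genes were Fos, an immediate early gene, Mt4, an epithelial metallothionein, at 8.25, and the early differentiation gene Krtdap at 6.86. Across members, Cxcl14 and Postn counts correlated at 0.37 to 0.46 and Fos and Hspb1 counts at 0.31 to 0.41 in each library. These correlations are over cells of the same library, which share its free RNA, and are descriptions.

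**Figure D3:**
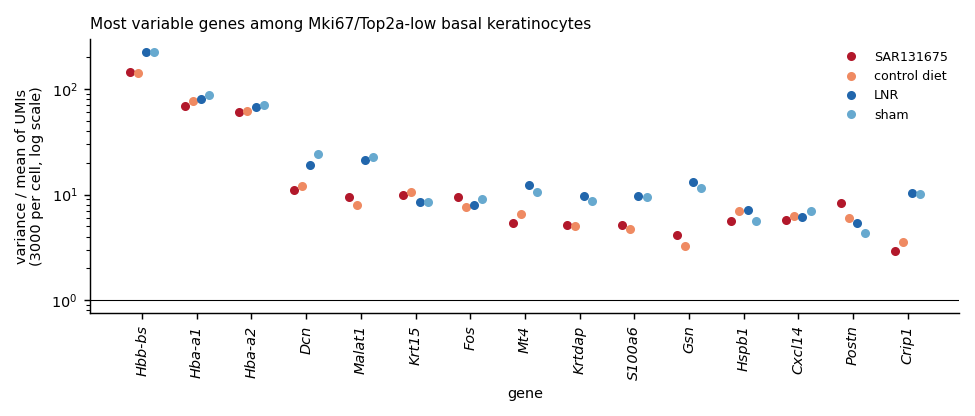
The 15 genes with the highest variance over mean of UMIs among members thinned to 3000 UMIs, on a log axis, with 1 point per library and a line at 1. Hemoglobin genes lie at 61.1 to 225, and Krt15 lies at 8.52 to 10.5 in all 4 libraries.

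The first question of the design was whether the diet or the lymph node removal changed these cells. Members made 8.48% (8.16 to 8.80) of kept cells in the SAR131675 library and 9.13% (8.77 to 9.50) in the control library, a log2 ratio of -0.11 (-0.19 to -0.028). They made 8.44% (8.06 to 8.84) of kept cells in the LNR library and 9.44% (9.05 to 9.85) in the sham library, a log2 ratio of -0.16 (-0.25 to -0.072). Taken as a share of keratin-positive cells only, the direction turned in both experiments, with 20.7% against 19.9% and 30.3% against 29.1%, and both log2 ratios had intervals that included 0 (-0.017 to 0.131 and -0.020 to 0.138). Spinous cells were 14.9% and 18.7% of kept cells in the diet pair and 8.65% and 9.75% in the surgical pair. With 1 pooled library per condition, no spread between animals is available to set these differences against.

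Of 11704 genes with at least 100 UMIs in members of the diet pair, 179 (1.53%) were at least 1.5-fold higher with SAR131675 and 236 (2.02%) lower, 3.55% in all. The median over all genes was -0.06 on the log2 scale, and scaling by the median ratio turned the split into 229 higher and 165 lower. Of the 179 higher genes, 162 (90.5%) were lower in members than in the other kept cells, and 83 (46.4%) had at least 50% of their UMIs in 1% of members. The same shares over all genes tested were 49.5% and 3.32%. Il1b, an inflammatory cytokine gene, illustrates this, with 186 UMIs in 11 SAR131675 members, 103 of them in a single cell, against 2 UMIs in the control. Cxcl2, a chemokine gene that attracts neutrophils, ranked next with 473 against 13 UMIs. The neutrophil genes S100a8 and S100a9 were also among the 10 highest, at 5.45 against 0.338 CPM and 5.31 against 0.296 CPM. Removing Scrublet calls lowered the Il1b log2 ratio from 5.95 to 3.55 and that of the osteopontin gene Spp1 from 4.08 to 1.58. The ratios of Cxcl2, S100a9 and S100a8 changed less, from 4.87, 4.07 and 3.93 to 3.98, 3.70 and 3.58. With Krt5 plus Krt14 at 2% of UMIs or more, which left 397 and 502 members, Il1b gave 1 and 0 UMIs and Spp1 gave 2 and 3, too few for a ratio. Cxcl2 gave 7 and 1 UMIs there, S100a8 69 and 2, and S100a9 47 and 1. Each of these was still higher with SAR131675, at counts under 100.

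Genes of other cell types were summed for both pairs. Neutrophil markers were at 11.2 and 0.676 CPM in members of the diet pair and at 303 and 26.9 CPM in the surgical pair. Langerhans cell markers were at 37.2 and 14.3 CPM and at 213 and 259 CPM, and macrophage markers at 22.2 and 17.3 CPM and at 113 and 55.9 CPM. Fibroblast markers were at 537 and 528 CPM and at 1388 and 1095 CPM. Melanocyte markers were at 1.44 and 1.52 CPM and at 40.6 and 0.992 CPM. Of the single markers, Retnlg of neutrophils was at 0 in the control diet members and Mlana and Tyrp1 of melanocytes were at 0 in the sham members. Endothelial, T cell, Merkel cell and sweat gland markers each summed to at most 19.4 CPM in every library. In the other kept cells the neutrophil sums were 63.9 to 877 CPM. The part of such cells or of their free RNA in each ratio was not tested.

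Restricted to the 5914 genes that were at least as high in members as in the other kept cells of both libraries, a limit chosen after the values were seen, 17 (0.287%) were at least 1.5-fold higher with SAR131675 and 59 (0.998%) lower, 1.29% in all. The genes named from this restricted list were also chosen with their values in view. Tspear, which encodes an ectodermal protein with epilepsy-associated repeats, lay at 208 CPM against 119 CPM, a log2 ratio of 0.81 (0.74 to 0.88). It was higher in the cycling, follicle and spinous sets too, by 0.98, 0.85 and 0.50. Pdia4, a protein folding gene of the endoplasmic reticulum, lay at 70.4 against 45.4 CPM, and Ccl20, a chemokine gene, at 3.02 against 1.099 CPM. Wnt5b, a noncanonical Wnt ligand, lay at 28.7 against 53.5 CPM, a log2 ratio of -0.90 (-1.03 to -0.77). That ratio ranged from -1.11 to -0.77 over the alternatives run for gene ratios.

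**Figure D4:**
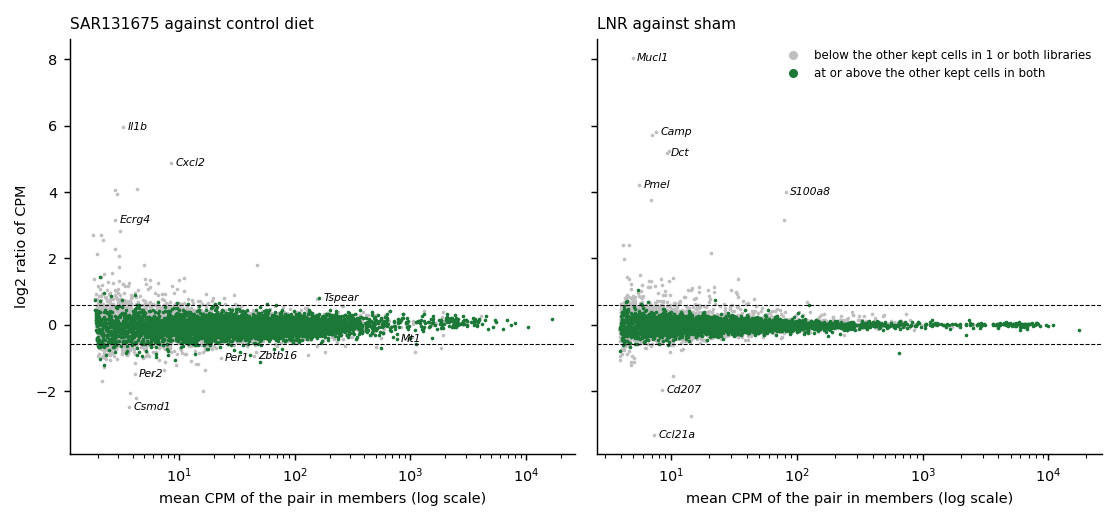
Each point is 1 gene with at least 100 UMIs in the pair, with mean CPM in members on a log axis and the log2 ratio of CPM on the vertical axis, for SAR131675 against control diet (left) and LNR against sham (right), and dashed lines at 1.5-fold. The highest ratios, such as 5.95 for Il1b and 5.81 for Camp, are in grey. Grey genes were lower in members than in the other kept cells of 1 or both libraries. Most genes at or above those cells in both libraries (green) lie closer to 0. Mucl1, the highest point on the right, had no sham UMI and its place depends on the 0.5 added.

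Several genes of the daily clock were lower with SAR131675. Per2, a repressor of the clock, was among the 10 lowest ratios of all genes, with 62 UMIs in 54 members against 144 UMIs in 133 members, a log2 ratio of -1.48 (-1.94 to -1.04). Fkbp5, a feedback gene of the glucocorticoid receptor, was also among them, at 8.72 against 19.6 CPM and a log2 ratio of -1.17 (-1.40 to -0.94). After these values were seen, lists of 17 clock genes and 10 glucocorticoid-responsive genes were drawn up, so their counts are a description. Of the clock genes, 3 were at least 1.5-fold lower (2.02% over all genes) and none higher, with a median log2 ratio of -0.32 against -0.06 over all genes. Of the glucocorticoid-responsive genes, 3 were lower and none higher, with a median of -0.46. Per1 is in both lists.

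Per1, the clock repressor that glucocorticoids induce, lay at 15.3 CPM with SAR131675 against 30.6 CPM, a log2 ratio of -0.995 (-1.17 to -0.82). That ratio ranged from -1.13 to -0.88 over the alternatives run for gene ratios. Zbtb16, a transcription factor gene induced by glucocorticoids, lay at 30.8 against 58.5 CPM, and Cry1, a clock repressor, at 30.4 against 47.6 CPM. The metallothionein gene Mt1 lay at 654 against 885 CPM, under 1.5-fold, and the core activators Clock and Arntl had log2 ratios of -0.02 and -0.17. In LNR against sham, Per1 lay at 33.8 and 33.6 CPM, Fkbp5 at 8.03 and 7.71 CPM and Zbtb16 at 7.13 and 7.48 CPM. The median log2 ratio there was 0.03 for the clock list and 0.08 for the glucocorticoid list.

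The lower levels with SAR131675 were not limited to members. Per1 had log2 ratios of -1.001 in cycling basal cells, -1.22 in follicle cells, -0.87 in spinous cells and -0.53 in cells without these keratins. Fkbp5 had -0.78, -1.23, -0.73 and -0.69, and Zbtb16 had -1.03, -1.01, -0.48 and -1.12 in the same sets. The labels give no hour of tissue collection.

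**Figure D5:**
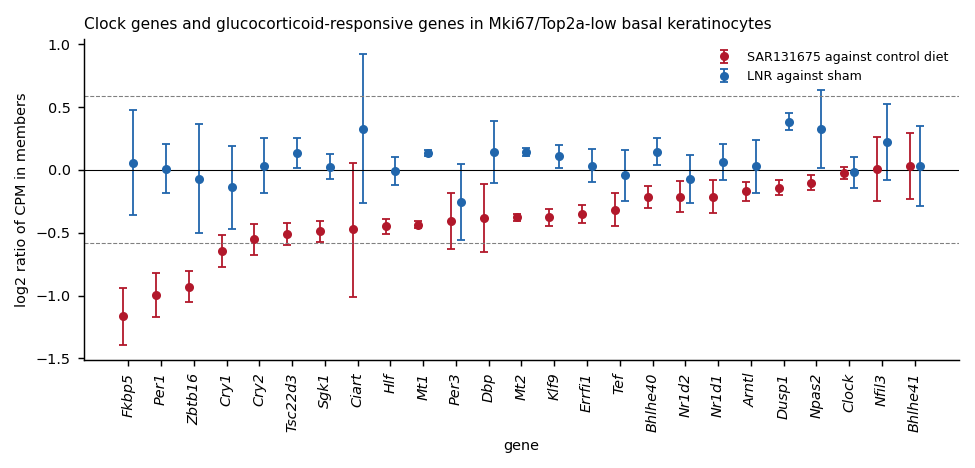
Log2 ratios of CPM in members, with 95% counting intervals, for the clock and glucocorticoid-responsive genes tested in both pairs, in order of the diet ratio, with dashed lines at 1.5-fold. Fkbp5, Per1, Zbtb16 and Cry1 lie below the lower line for SAR131675 against control diet (red), and no gene passes either line for LNR against sham (blue).

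The promoters of Per1 and Fkbp5 are shown as examples. Both genes were lower, and both have a promoter that holds the letters CACGTG, the E-box that clock activators are known to bind. Other lower genes, such as Cry1 with 1 match, have such a promoter too and are not shown. Cry2, Tsc22d3 and Hlf, with log2 ratios of -0.55, -0.51 and -0.45, have no match. Bhlhe41 and Dusp1, with ratios of 0.03 and -0.14, have 1 match each. Per2 and Zbtb16 had no promoter to search. The sequences are those of RefSeq on GRCm38.p6, from 250 bases before the start of the gene to 50 after it, with the E-box in capitals. The motif reads the same on both strands.
Per1, chr11:69098699-69098998, plus strand: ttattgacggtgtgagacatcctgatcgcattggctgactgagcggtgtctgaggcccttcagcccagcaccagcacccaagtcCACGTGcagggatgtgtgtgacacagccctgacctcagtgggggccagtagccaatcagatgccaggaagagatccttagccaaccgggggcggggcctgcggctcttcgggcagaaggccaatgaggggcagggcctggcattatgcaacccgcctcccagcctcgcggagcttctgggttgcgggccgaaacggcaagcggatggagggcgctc
Fkbp5, chr17:28486100-28486399, minus strand: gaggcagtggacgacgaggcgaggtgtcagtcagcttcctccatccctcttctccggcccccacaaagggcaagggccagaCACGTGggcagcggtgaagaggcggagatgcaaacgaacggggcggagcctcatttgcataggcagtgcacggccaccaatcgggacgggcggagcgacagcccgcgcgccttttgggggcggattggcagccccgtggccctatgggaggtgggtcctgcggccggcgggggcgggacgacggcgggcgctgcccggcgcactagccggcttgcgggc
The table holds 2 promoters of Per1, and the other one lacks these letters. In those shown, the letters lay 166 bases before the start in Per1 and 169 bases in Fkbp5. They were present in 6 of 20 promoters of 15 matched clock genes, in 4 of 18 promoters of 9 matched glucocorticoid-responsive genes and in 7.15% of all 32851 promoters. Such a match is a description of the letters.

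For the lists of the diet pair, the shares over all genes were 1.53% higher and 2.02% lower. Of 24 attachment genes tested, none was 1.5-fold apart in either direction, a count near these shares. Their median was -0.10, with 12 intervals below 0 and 4 above. Of 21 wound-activated genes, 8 were higher and 2 lower with SAR131675. The median log2 ratio was 0.37, and 0.20 with members thinned to 3000 UMIs. Among the higher ones were Krt16 at 9.39 against 4.95 CPM and the cornified envelope gene Sprr1b at 11.95 against 6.13 CPM. S100a8, S100a9 and Slpi were others, and their UMIs sat in 29, 20 and 21 SAR131675 members. The neutrophil markers include S100a8 and S100a9 of this list, so their sum, at 11.2 against 0.676 CPM, is not separate from it. Nail and hair keratinocyte markers were at 16.1 against 5.33 CPM. Some cells met every other limit of the rule but had at least 0.1% of UMIs from Krt17, Krt6a and Krt79. They were 1.75% against 1.26% of kept cells. The part of these in the count was not tested. Of 12 keratins, 4 were higher and none lower. The 12 include keratins of the rule, and 2 of the 4 were Krt17 and Krt79, so nothing is read from this count. Krt9, a keratin of footpad skin, lay at 7.80 against 3.51 CPM. Of 17 cytokines and chemokines, 4 (Il1b, Cxcl2, Ccl20 and Defb6) were higher and Cx3cl1 was lower. Of 25 differentiation genes, 3 were higher and none lower, and 21 ratios and 17 intervals lay above 0 (1824 of 11704 intervals over all genes). Their median was 0.18, and the lipid carrier gene Fabp5 lay at 195 against 114 CPM. None of 32 growth factor receptors was 1.5-fold apart, though 5 ratios lay above 0 and 19 intervals below 0 (3721 of 11704 over all genes), with a median of -0.16 against -0.06 over all genes. Of 30 Wnt genes 1 was higher and 1 lower, and the higher one, the effector Lef1, lay at 6.71 against 4.27 CPM with 54 of its 191 SAR131675 UMIs in a single cell. Txnip, a glucose-responsive gene of the exit list, lay at 213 against 332 CPM.

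In the surgical pair, 126 (1.28%) of 9872 genes were at least 1.5-fold higher with LNR and 39 (0.395%) lower, 1.67% in all. Of the 126 higher genes, 118 (93.7%) were lower in members than in the other kept cells of 1 or both libraries. Of the same 126, 85 (67.5%) had at least 50% of their UMIs in 1% of members. The same shares were 84.6% and 35.9% of the 39 lower genes and 62.2% and 2.64% of all genes tested. Mucl1, a mucin-like gene, gave 121 UMIs in 1 LNR member and none in the sham. Camp, which encodes a neutrophil antimicrobial peptide, gave 182 UMIs in 4 members against 3 UMIs, and the pigment gene Dct gave 220 UMIs in 5 members against 6 UMIs. S100a8 gave 1884 against 127 UMIs, in 48 and 49 members, and 1 LNR cell held 908 of them. The number of members with S100a8 was thus alike and the counts per cell were not.

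Restricted to the 3727 genes at least as high in members as in the other kept cells, 8 (0.215%) were higher with LNR and 6 (0.161%) lower, 0.376% in all. C2cd4b, a gene of a calcium-binding domain family, lay at 7.37 against 3.51 CPM, a log2 ratio of 1.06 (0.54 to 1.62). Rps27rt, at 149 against 99.2 CPM, is a near copy of a ribosomal protein gene, so its counts are uncertain. Hmga1, a chromatin gene, lay at 7.45 against 11.4 CPM. Among the 10 lowest ratios of all genes, Cenpf, a kinetochore gene, lay at 3.19 against 6.95 CPM. The histone gene H2ac24 lay at 2.87 against 6.64 CPM, from 34 against 79 members. Of the fixed lists, 1 of 15 G2/M genes and none of 26 G1/S and S phase genes were 1.5-fold lower with LNR, with medians of -0.092 and -0.083. Over all genes the share was 0.395% and the median -0.006.

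The surgical pair was close to even in most lists. Of 25 attachment genes and 16 clock genes, none was 1.5-fold apart, counts near the share of 1.67% over all genes. Of 31 immediate early and stress genes, none was 1.5-fold apart, yet 28 had a ratio above 0 and the median log2 ratio was 0.24, against -0.006 over all genes. Fos lay at 811 against 653 CPM and the phosphatase gene Dusp1 at 308 against 236 CPM. In the diet pair the median of the same list was -0.09. Wound-activated genes had 6 of 19 higher with LNR and none lower, against 1.28% higher over all genes. The 6 were S100a8, S100a9, Lcn2, Mmp13, Ptgs2 and Stfa1, and Stfa1 has near copies that make its counts uncertain. The neutrophil markers, at 303 against 26.9 CPM in the same cells, include S100a8 and S100a9 of these 6. Their sum is therefore not separate from this count, and the part of neutrophils in it was not tested.

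The genes highest in both experiments were S100a8, S100a9, Ecrg4, Cd14 and Cilp, with log2 ratios of 1.05 to 4.07. Each was lower in members than in the other kept cells of every library. At 2% keratin, which left 293 LNR and 371 sham members, S100a8 gave 10 and 6 UMIs there, S100a9 gave 6 and 8, Ecrg4 gave 4 and 12, Cd14 gave 3 and 4, and Cilp gave 12 and 13. Among those members S100a8 had a log2 ratio of 0.92 for LNR against sham, at counts under the minimum of 100. The ratios of the others ran from -1.25 for Ecrg4 to 0.12 for Cilp. In the diet pair the same limit left 397 SAR131675 and 502 control members. S100a8 gave 69 and 2 UMIs there, S100a9 47 and 1, Ecrg4 12 and 4, Cd14 14 and 11 and Cilp 5 and 0. All 5 ratios lay above 0 with SAR131675, from 0.58 for Cd14 to 5.23 for S100a9, at counts also under 100. No contrast between the experiments is read from such counts. Of the genes lower in both, Ccl21a, a lymphatic chemokine gene, had log2 ratios of -2.07 and -3.31, and 84 of its UMIs sat in a single cell in each control library. At 2% keratin it gave 6 and 3 UMIs in the diet pair and 3 and 0 in the surgical pair, not lower in either treated library. The next, Synpo2, Bach2, Epg5 and Myh14, were between -0.48 and -0.40 in both pairs, and their intervals included 0 for LNR against sham. Vegfd had log2 ratios of 0.05 and -0.11 and Il34 of -0.46 and 0.05, each under 1.5-fold.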

How the data were processed

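Digit cells from 4 libraries were profiled with droplet 3' single-cell RNA sequencing. The counts deposited by the authors are whole UMI numbers for 33696 genes in each barcode, without normalization, with no barcode under 500 UMIs. The labels name Cell Ranger 6.1.2 and GRCm39 for every sample, whereas the file headers give version 8.0.1 for the diet pair. Whether intronic reads were counted in each pair is not given in the sources used here.

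Barcodes with 200 to 5500 genes, at most 30000 UMIs and at most 10% mitochondrial UMIs were kept. Counts were summed over the cells of each library and given as CPM. Ratios had 0.5 added to each sum, genes needed 100 UMIs in the pair or in the sets compared, and limits of 1.5-fold for pairs and 2-fold in all 4 libraries for sets were used. Genes of the rule were left out of the counts between sets. Shares had Clopper-Pearson intervals, CPM exact Poisson intervals and ratios exact conditional intervals, at 95%. With 1 library per condition no p-value was computed. Doublets were called with Scrublet in each library and left in. Python 3.11.15, numpy 2.4.6, scipy 1.17.1, pandas 2.3.3, scanpy 1.11.5 and matplotlib 3.10.9 were used. The scripts were tested on simulated data.

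The genes named were those of the rule, the 4 with the highest mean CPM in each list, the VEGF, RANKL and CSF1 ligands, the 10 highest and 10 lowest ratios of each comparison, the 5 largest shared rises and falls and the 15 most variable genes, from which examples are given. Genes named outside this rule, such as list members past 1.5-fold and the clock, glucocorticoid and restricted lists, were chosen after their values were seen. The members and all lists were chosen with earlier results of these data known. The alternatives were other limits of the rule, scalings, UMI minimums and added counts, thinning, and removal of Scrublet calls. Of the other limits, only 2% keratin and no Mki67 or Top2a UMI were run for gene ratios. Some genes that the rule would name are not reported here.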

Additional observations from a re-analysis of the deposited data

How the results depend on the processing

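One pooled library per condition leaves no spread between animals, and genes under 100 UMIs could not be compared. The log2 ratio of member shares, -0.11 for SAR131675 and -0.16 for LNR, became -0.61 and -0.28 with Krt5 plus Krt14 at 2% or more, and turned to 0.057 and 0.059 as a share of keratin-positive cells. In the diet pair it was -0.23 with a keratin ratio over 10 and -0.22 with fewer than 2 follicle genes. The 415 genes 1.5-fold apart in the diet pair became 1101 at a minimum of 30 UMIs, 157 at 300 and 76 in the restricted list. The 165 in the surgical pair became 670, 40 and 14, and 92 with thinning and 75 (29 higher, 46 lower) at 2% keratin. Lists with a median at least 0.2 from that of all genes were 4 in the diet pair, or 2 without Scrublet calls, and 5 in the surgical pair, or 2 at 300 UMIs, 1 with thinning and 2 at 2% keratin. Thinning left 1897 of 2925 genes apart from spinous cells and 117 of 189 from follicle cells, and gave S phase shares of 6.46%, 5.00%, 9.51% and 10.4% and G2/M shares of 1.09%, 1.16%, 2.22% and 2.72%. With no Mki67 or Top2a UMI the S phase shares were 39.0%, 35.2%, 23.1% and 23.1%, from 41.1%, 38.1%, 26.0% and 26.7%, and the G2/M shares 27.6%, 25.2%, 9.77% and 9.05%, from 29.7%, 28.2%, 11.9% and 12.6%. Fewer genes or UMIs enter the counts at higher minimums and after thinning. The cause of the other changes was not tested. No paired analysis was possible because each condition had 1 library, in which the mice were pooled. The other 56 values stayed within 1.5 times or their interval, but the genes behind a count could differ. In the diet pair 283 genes with thinning (80 higher, 203 lower) held 104 of the 415, 284 at 2% keratin (79 higher, 205 lower) held 58, and 409 without Scrublet calls (123 higher, 286 lower) held 338. In the surgical pair 33 of the 165 remained with thinning, 2 at 2% keratin and 98 without Scrublet calls.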

Other observations

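Ifitm3, an interferon-induced membrane protein gene, lay at 422, 501, 849 and 803 CPM in the order SAR131675, control diet, LNR and sham, and was 2.69 to 2.88 higher than in spinous cells on the log2 scale. None of 14 and 15 interferon-response genes tested in the diet and surgical pairs was 1.5-fold apart, near the 3.55% and 1.67% of all genes. Cxcl14, a chemokine gene of basal epidermis, lay at 186, 248, 268 and 275 CPM in members against 13.96 to 39.6 CPM in spinous cells. Ccl27a, a chemokine gene that attracts skin-homing T cells, was 1.90 to 3.07 lower than in outer follicle cells, at 23.4, 22.3, 139 and 148 CPM against 186 to 703 CPM.

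Receptors of the members included Fgfr2, for fibroblast growth factors, at 709, 730, 153 and 153 CPM, and Egfr at 364, 390, 70.3 and 69.8 CPM. Both were higher than in spinous cells, by 1.97 to 2.13 and 0.96 to 1.06 on the log2 scale. Of 35 growth factor receptors tested, 9 were at least 2-fold higher than in spinous cells in all 4 libraries and 1 lower, against 12.9% and 6.88% of all genes. Ribosome and oxidative phosphorylation lists had no gene past 2-fold in all 4 libraries in any of the 3 set comparisons, nor past 1.5-fold in either pair. Over all genes, 0.505% were higher and 4.1% lower against cycling cells, and 0.531% and 0.944% against follicle cells. In the pairs 3.55% and 1.67% were apart. Outside the spinous comparison, the counts of these short lists are thus near the shares over all genes. In glycolysis, Gapdh lay at 553, 578, 513 and 527 CPM and was 0.34 to 0.40 lower than in cycling basal cells. The gene set for limb position held Sp9, an apical ridge factor, at 51.0, 53.2, 24.8 and 27.3 CPM, which was 1.09 to 1.60 above spinous cells.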
